A study of Mus musculus with 10 samples.

Results

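Among the chromatin regions less accessible in regulatory T cells (Tregs) without Vps34, 5 genes that are not commonly discussed in this lineage were singled out, namely Nav2, Galnt2, Impa2, Acod1 and Igsf9b. The regions described here were all peaks of accessibility lying in these genes or within 10 kb of them by the GENCODE annotation of the mouse genome build GRCm38, which made 104 of the 97385 peaks counted. Nav2 had 57 of them, Galnt2 26, Impa2 10, Acod1 6 and Igsf9b 5. The genes were selected on their lower accessibility in Vps34-deficient cells in these same libraries. The effect of genotype is therefore given as a description, and only the effect of tissue and the interaction of tissue with genotype were tested.

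Accessibility was measured by ATAC-seq, which uses a transposase to tag open stretches of DNA for sequencing. The cells were CD4+Foxp3-YFP+TCRb+ Tregs, sorted out of spleen or lung when the mice were 10 days old. In Vps34-deficient cells, both floxed copies of Pik3c3, the gene for Vps34, were removed by a Cre recombinase under the control of Foxp3, so that the deletion was limited to cells that had switched on Foxp3. Controls were littermates with Foxp3-driven Cre that kept at least 1 intact copy of Pik3c3, and the labels do not say which controls had 1 floxed copy. There were 2 libraries of spleen control, 4 of spleen Vps34-deficient, 2 of lung control and 2 of lung Vps34-deficient cells. The paper's figure legend gives group sizes in mice, with the 2 spleen sizes the other way round from the labels. The labels themselves do not say whether replicates came from separate mice, so the p-values measure the spread between these libraries. Fewer open cells and less opening in each cell cannot be told apart in such bulk samples.

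Vps34 is a lipid kinase that makes phosphatidylinositol 3-phosphate on internal membranes and is known for its roles in autophagy and endosomal traffic. Open chromatin lies mainly at gene starts and at distal elements, many of them intronic, that bind transcription factors. The 5 genes have unrelated products. Nav2 encodes neuron navigator 2, a cytoskeleton-associated protein known from neurite growth, and Galnt2 encodes a Golgi enzyme that starts O-linked glycan chains on proteins. Impa2 encodes an inositol monophosphatase, which frees inositol from its phosphate. Acod1 encodes the mitochondrial enzyme that makes itaconate from cis-aconitate, best known from activated macrophages. Igsf9b encodes an immunoglobulin superfamily adhesion molecule known from inhibitory synapses.

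Some of the regions that lost accessibility are shown first as sequence, 1 or 2 for each of 4 genes, because the genotype results are described around them. For each gene the closing peak was the one with the most negative log2 fold change of genotype over both tissues. The central 300 bases of the closing peaks of Nav2, Galnt2, Acod1 and Igsf9b are given, together with the most accessible Nav2 peak that was lower in both tissues. The Impa2 closing peak is described by its values alone. All are from the plus strand of GRCm38, 5′ to 3′. Their positions, in the order printed, are chr7:49178051-49178350, chr7:49200358-49200657, chr8:124271618-124271917, chr14:103048846-103049145 and chr9:27313368-27313667. Capitals mark matches on either strand to any of 9 short motifs of transcription factor families (AP-1, CRE, Nfil3, ETS, RUNX, GATA, TCF/LEF, NFAT and KLF/SP), whose letters are spelled out with their shares of all peaks.
Nav2 closing peak, intron: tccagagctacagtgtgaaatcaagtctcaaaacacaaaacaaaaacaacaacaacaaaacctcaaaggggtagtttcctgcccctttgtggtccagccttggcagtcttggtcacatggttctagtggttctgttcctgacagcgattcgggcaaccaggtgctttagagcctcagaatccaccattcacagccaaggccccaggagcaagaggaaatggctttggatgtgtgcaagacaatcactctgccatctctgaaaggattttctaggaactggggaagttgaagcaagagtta
Nav2 most accessible closing region, intron: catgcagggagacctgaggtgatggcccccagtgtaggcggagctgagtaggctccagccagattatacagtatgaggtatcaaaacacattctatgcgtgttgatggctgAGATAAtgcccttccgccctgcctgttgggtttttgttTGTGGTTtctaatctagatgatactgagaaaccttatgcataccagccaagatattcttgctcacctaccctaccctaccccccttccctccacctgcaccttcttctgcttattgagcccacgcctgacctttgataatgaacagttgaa
Galnt2 closing peak, intron: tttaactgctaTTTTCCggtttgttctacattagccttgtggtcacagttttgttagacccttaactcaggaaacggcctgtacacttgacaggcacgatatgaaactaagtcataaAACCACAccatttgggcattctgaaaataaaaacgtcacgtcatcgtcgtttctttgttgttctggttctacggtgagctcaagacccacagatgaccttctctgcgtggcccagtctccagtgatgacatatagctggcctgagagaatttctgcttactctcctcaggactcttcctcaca
Acod1 closing peak, intronic part: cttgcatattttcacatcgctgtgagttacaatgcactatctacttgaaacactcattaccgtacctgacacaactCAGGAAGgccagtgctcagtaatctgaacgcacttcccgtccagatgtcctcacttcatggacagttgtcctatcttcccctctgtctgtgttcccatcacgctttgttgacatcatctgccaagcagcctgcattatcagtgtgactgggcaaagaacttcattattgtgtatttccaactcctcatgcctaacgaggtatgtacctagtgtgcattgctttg
Igsf9b closing peak, intron: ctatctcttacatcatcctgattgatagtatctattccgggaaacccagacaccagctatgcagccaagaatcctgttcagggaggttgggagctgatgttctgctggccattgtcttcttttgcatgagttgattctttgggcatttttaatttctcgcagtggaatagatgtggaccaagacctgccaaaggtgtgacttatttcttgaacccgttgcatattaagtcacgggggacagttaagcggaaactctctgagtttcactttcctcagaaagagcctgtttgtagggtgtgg
The most accessible Nav2 region held a RUNX and a GATA match, the Galnt2 region a RUNX and an NFAT match and the Acod1 region an ETS match, as did the Impa2 closing peak. No match to these letters lay in the windows of the Nav2 and Igsf9b closing peaks.

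Such matches are common among the open regions of these cells. The ETS letters CAGGAAG lay in the central 300 bases of 8 of the 16 member peaks lower in both tissues (50%), of 17 of the other 88 (19.3%) and of 20.8% of all 97250 peaks on assembled chromosomes. The RUNX letters TGTGGTT lay in 4 of the 16 (25%), in 12 of the 88 (13.6%) and in 10.8% of all peaks. The AP-1 letters TGANTCA lay in 2 of the 16 (12.5%), in 13 of the 88 (14.8%) and in 13% of all peaks. The GATA letters AGATAA lay in 12.5%, 13.6% and 15.1% of the same 3 sets. The TCF/LEF letters CTTTGAA lay in 6.25%, 7.95% and 7.71%, and the NFAT letters TTTTCC in 18.8%, 17% and 21.9%. The KLF/SP letters GGGCGGG lay in 5 of the 88 and in 11.6% of all peaks, and in none of the 16. The CRE letters TGACGTCA lay in no member window and in 0.846% of all peaks. The letters TTATGTAA, the bZIP motif of Nfil3, lay in no member window either and in 1.03% of all peaks. Both strands were searched, and a stretch can count for more than 1 motif. The median GC content was 51% in the 16, 51.3% in the 88 and 48.7% over all peaks. A match describes the letters and not a bound site, and these shares were not tested.

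Over the 5 genes, lower accessibility without Vps34 was seen at some peaks of each gene and not at others. Both thresholds of the study were applied, 0.05 for the adjusted p and 0.5 for the size of the log2 fold change. Past both, 17 of the 104 peaks were lower in spleen (1.02% of all 97109 peaks tested) and 23 were lower in lung (3.74% of all). In both tissues 16 peaks were lower (0.812% of all), of which 4 lay at each of Nav2, Galnt2 and Impa2, 3 at Igsf9b and 1 at Acod1. None of the 104 was past the thresholds upward within a tissue, against 0.441% of all peaks in spleen and 1.22% in lung, and DESeq2 put none past them either, though some other alternatives put 1 or 2. With the tissues fitted together, 24 were past them downward (4.06% of all) and 3, all at Nav2, upward (3.52% of all, log2 fold changes of 0.66, 0.87 and 0.58). Since the genes were selected on this contrast, these shares only describe the selection. In spleen, all 4 Vps34-deficient libraries lay below both controls at 32 of the 104 peaks (11.1% of all peaks), and in lung both lay below both controls at 46 (22% of all). The 16 had a median width of 547.5 bp and a median level of 13.4 CPM (counts scaled to a library total of 1e+06), against 320.5 bp and 3.85 CPM at the other 88 and 328 bp and 3.30 CPM over all tested peaks. Of the 16, 12.5% lay within 1 kb of the start of a protein-coding gene, against 13.6% of the 88 and 20.7% of all.

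**Figure D1:**
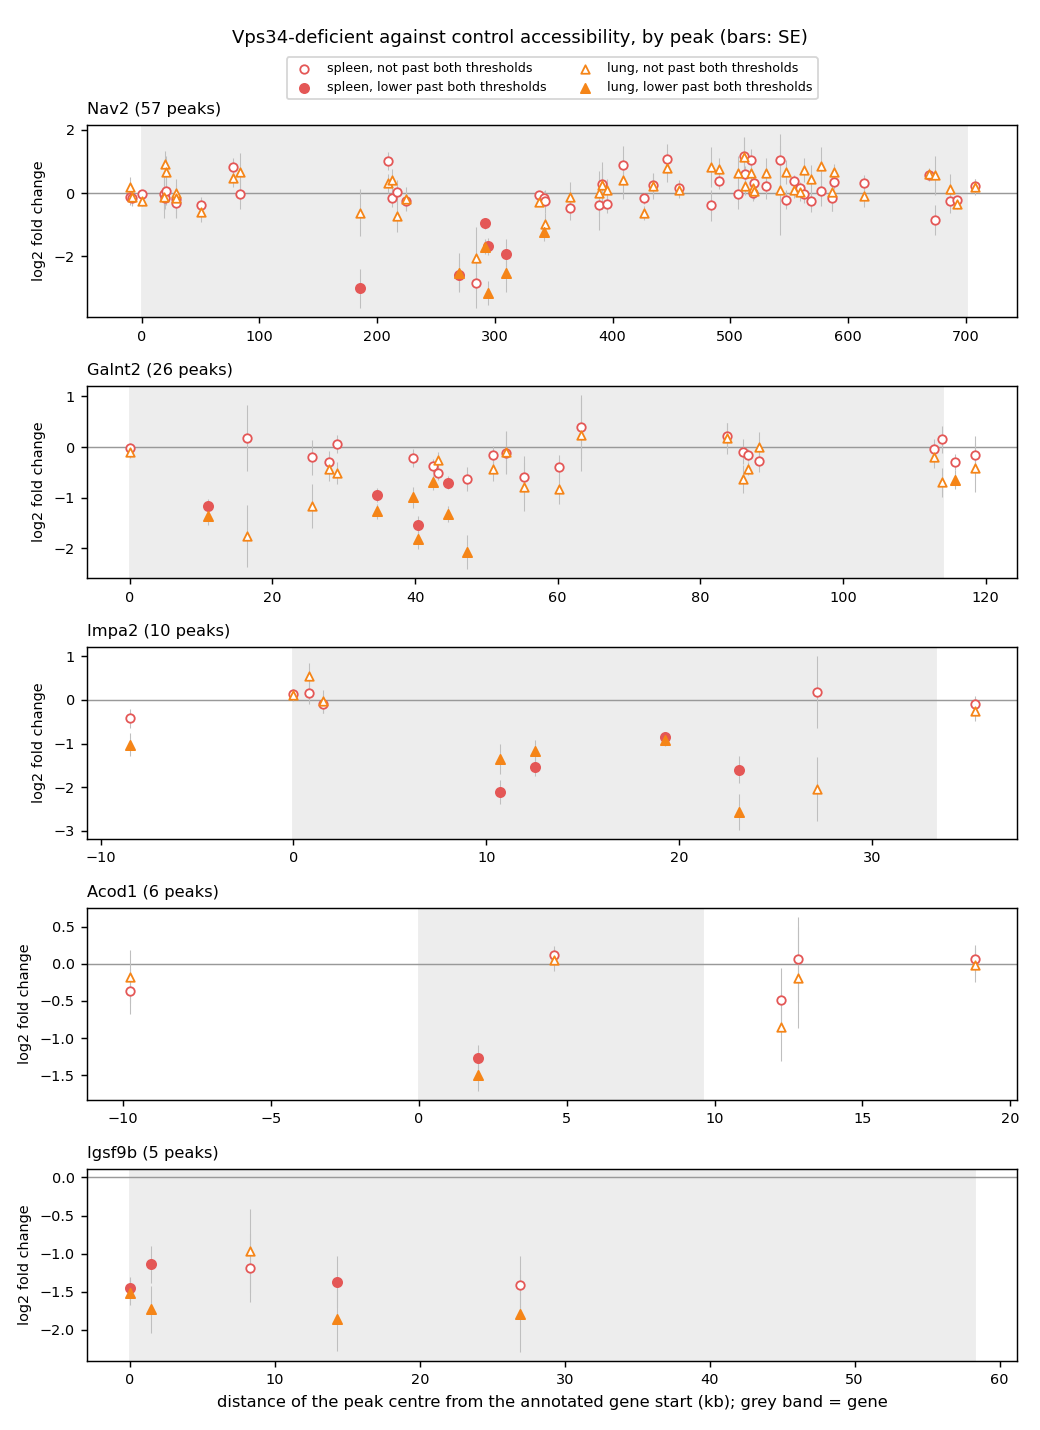
Log2 fold change of accessibility, Vps34-deficient against control, for each of the 104 peaks (y axis) by the distance of its centre from the annotated gene start in kb (x axis), with circles for spleen, triangles for lung, bars for the standard error and filled symbols for peaks lower past both thresholds. The Nav2 peaks lower in both tissues lie between 269 and 310 kb from the gene start, whereas all 5 Igsf9b peaks lie below 0.

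Nav2, the longest of the 5 genes, spans chr7:48908716-49610090 on the plus strand (701 kb). Its peaks lower in both tissues sat in introns in a single stretch between 269 and 310 kb from the gene start, while 51 of its 57 peaks were past the thresholds in neither tissue and the median log2 fold change over the 57 was -0.05 in spleen and 0.09 in lung. Over all tested peaks these medians were 0.05 and 0.02. The closing peak, chr7:49177905-49178496, read 3.48 and 2.48 CPM in spleen control libraries against 0.278, 0.367, 0.903 and 0.287 CPM without Vps34. In lung it read 3.51 and 4.09 CPM in the controls and 0.162 and 1.27 CPM without Vps34. The groups did not overlap in either tissue, with a log2 fold change of -2.60 ± 0.48 (standard error) for spleen and -2.52 ± 0.63 for lung. This is a weakly open peak, so that few counts stand behind the low values, and leaving out lung Vps34-deficient replicate 2 moved the lung value to -4.43. The spleen value was -3.26 without spleen Vps34-deficient replicate 3 and -3.22 with the replicate number as a block.

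The most accessible region of that stretch was chr7:49200214-49200801, 292 kb from the gene start. It read 23.0 and 22.5 CPM in spleen control libraries against 9.46, 11, 12.5 and 13.6 CPM without Vps34, and in lung 23.8 and 24.6 CPM in the controls and 9.75 and 5.08 CPM without Vps34. Its log2 fold change was -0.96 ± 0.18 in spleen and -1.70 ± 0.23 in lung, with controls of the 2 tissues close together. A short way further on, at 294 kb, chr7:49202983-49203322 read 6.60 and 6.89 CPM in the spleen controls against 1.35 to 2.58 CPM without Vps34, and 8.72 and 7.76 CPM in the lung controls against 0.975 and 0.847 CPM. The fold changes there were -1.69 ± 0.26 and -3.17 ± 0.38, the latter the most negative of any member in lung. The peak chr7:49218236-49218542, 310 kb from the start, was also lower in both tissues (-1.93 ± 0.48 and -2.54 ± 0.61). A peak between them, 284 kb from the start, had fold changes of -2.85 ± 0.80 and -2.06 ± 0.99 from levels of at most 1.83 CPM and was past the thresholds in neither tissue.

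A further Nav2 peak at 185 kb, chr7:49093676-49094010, was past the thresholds in spleen alone. It read 2.23 and 1.86 CPM in spleen control libraries and 0 to 0.431 CPM without Vps34, whereas in lung the controls read 1.49 and 1.41 CPM and the deficient libraries 0.487 and 1.48 CPM. One at 341 kb, chr7:49250076-49250337, was past them in lung alone, with 7.23 and 6.35 CPM in the controls and 2.92 and 2.96 CPM without Vps34. The gene's start regions stood apart from this stretch. The most accessible of 7 peaks within 1 kb of an annotated Nav2 transcript start, chr7:49245756-49246373 at 337 kb, overlaps an untranslated exon and read 50.7 and 46.6 CPM in spleen control libraries, 42.6 to 50.1 CPM in the deficient spleen libraries, 49.5 and 46.3 CPM in the lung controls and 38.3 and 40.9 CPM in the deficient lung libraries. Its log2 fold change was -0.07 ± 0.10 in spleen and -0.30 ± 0.12 in lung, where leaving out replicate 1 gave -0.15 (control) or -0.18 (Vps34-deficient). The peak at the most upstream start read 17.1 to 27.7 CPM over the 10 libraries, with fold changes of -0.03 for spleen and -0.25 for lung.

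**Figure D2:**
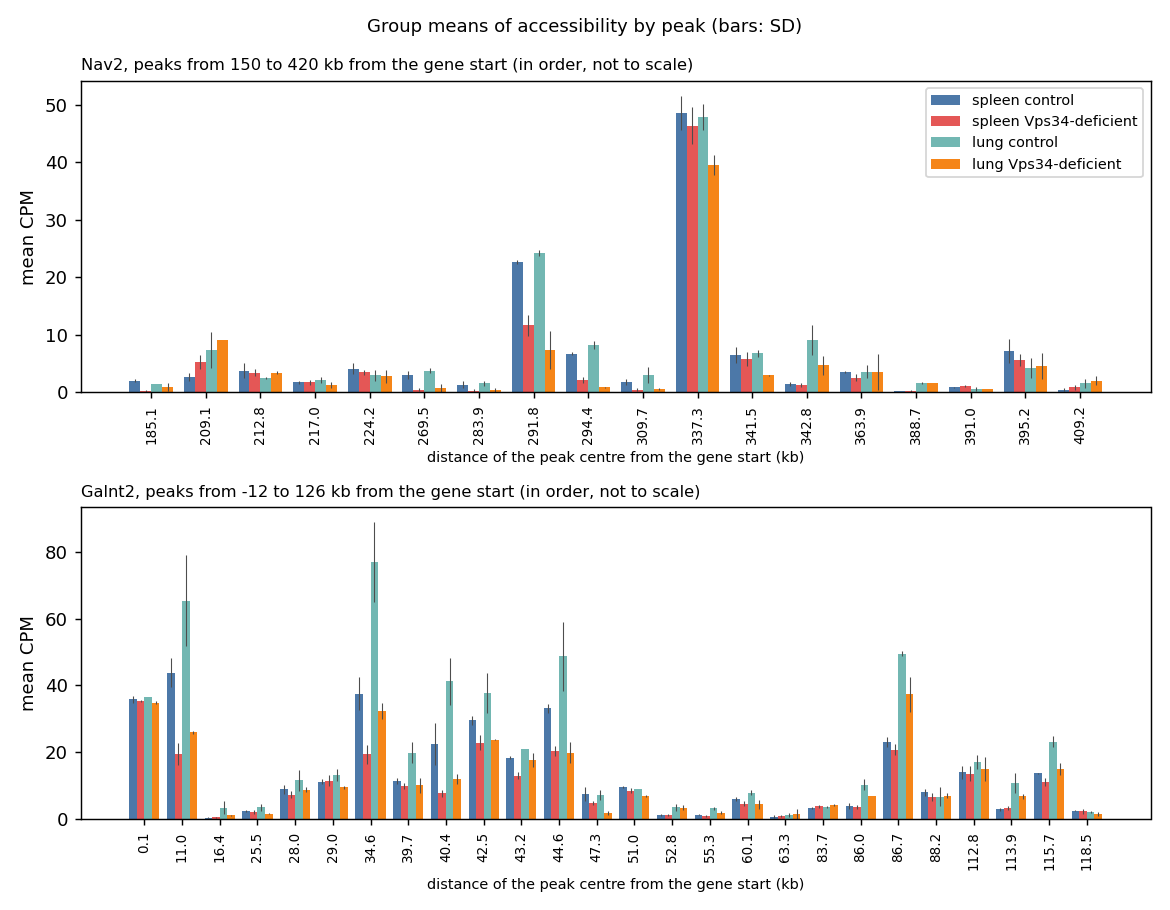
Mean CPM of each group (y axis, bars start at 0, error bars are the SD) at the Nav2 peaks around the closing stretch and at all 26 Galnt2 peaks, in order along the gene and labelled by distance from the gene start in kb. The Nav2 peaks at 291.8 and 294.4 kb are low in both deficient groups while the start peak at 337.3 kb is high in all groups, and the Galnt2 peaks from 11 to 44.6 kb show their highest bars in lung controls.

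Galnt2 spans chr8:124231391-124345724 on the plus strand (114 kb), within which another annotated gene model, Gm20388, also lies. Its start peak was level across the 10 libraries, while 4 intronic peaks between 11 and 44.6 kb from the start were lower without Vps34 in both tissues, with peaks that were past the thresholds in neither lying among them. The start peak, chr8:124231160-124231836, overlaps a coding exon and ranged from 34.4 to 36.6 CPM over all 10 libraries, with log2 fold changes of -0.02 ± 0.10 for spleen and -0.09 ± 0.12 for lung. The closing peak, chr8:124271534-124272001 at 40.4 kb, read 17.8 and 26.7 CPM in spleen control libraries against 6.54, 8.20, 7.13 and 8.61 CPM without Vps34. In lung it read 36.1 and 46.2 CPM in the controls and 13.0 and 10.8 CPM without Vps34. The groups did not overlap in either tissue, with fold changes of -1.54 ± 0.17 and -1.81 ± 0.21.

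The other Galnt2 peaks lower in both tissues lay at 11, 34.6 and 44.6 kb. At 11 kb (chr8:124242117-124242717), the spleen controls read 40.7 and 46.9 CPM against 16.4 to 23.7 CPM without Vps34, and the lung controls 55.7 and 75.1 CPM against 26.2 and 25.6 CPM. The fold changes there were -1.17 ± 0.14 in spleen and -1.36 ± 0.17 in lung. At 34.6 kb (chr8:124265742-124266290), the values were 34.0 and 40.9 CPM against 15.2 to 21.1 CPM in spleen and 68.5 and 85.4 CPM against 34.1 and 30.7 CPM in lung, with fold changes of -0.95 ± 0.13 and -1.27 ± 0.15. There the deficient lung libraries read close to the spleen controls. At 44.6 kb the fold changes were -0.70 ± 0.13 and -1.33 ± 0.16. Another 4 peaks, at 39.7, 42.5, 47.3 and 116 kb, were past the thresholds in lung alone, with fold changes from -0.65 to -2.08 there. The strongest of them, at 47.3 kb, read 6.17 and 8.11 CPM in the lung controls and 2.11 and 1.27 CPM without Vps34. Of the 26 peaks, 21 had a negative fold change in spleen and 23 in lung, and the medians were -0.21 and -0.64.

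Impa2 spans chr18:67289186-67322472 on the plus strand (33.3 kb). Its first start peak was open and not lower without Vps34, whereas 4 peaks in the middle of the gene were lower in both tissues. The start peak, chr18:67288617-67289721, read 53.4 CPM in both spleen controls, 60.2, 60.6, 60.5 and 53.8 CPM in the deficient spleen libraries, 37.8 and 53.2 CPM in the lung controls and 52.6 and 48.1 CPM in the deficient lung libraries. Its log2 fold change was 0.14 ± 0.11 in spleen and 0.11 ± 0.13 in lung. The closing peak, chr18:67312175-67312410 in an intron at 23.1 kb, read 4.28 and 3.72 CPM in spleen control libraries against 1.11, 0.979, 1.94 and 1.15 CPM without Vps34. In lung it read 5 and 6.77 CPM against 0.975 and 1.06 CPM. The groups did not overlap, with fold changes of -1.59 ± 0.31 and -2.56 ± 0.42.

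Much more open was chr18:67307766-67309122, which overlaps a coding exon and lies within 1 kb of another annotated start of Impa2, 19.3 kb into the gene. It read 42.9 and 44.8 CPM in spleen control libraries against 26.2, 23.9, 26.5 and 20.4 CPM without Vps34, and 57.2 and 61.0 CPM against 32.3 and 31.4 CPM in lung. The fold changes were -0.85 ± 0.11 and -0.91 ± 0.13. The intronic peaks at 10.7 and 12.5 kb were lower too, with log2 fold changes of -2.11 ± 0.28 and -1.53 ± 0.21 in spleen and of -1.36 ± 0.35 and -1.17 ± 0.25 in lung. A peak upstream of the gene, at -8.49 kb, was past the thresholds in lung alone (-1.03 ± 0.26).

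Acod1 is the shortest of the 5 genes, at chr14:103046977-103056573 on the plus strand (9.60 kb), and had no peak within 1 kb of its start. A single peak of its 6 was lower, and a neighbouring peak in the gene was level. The lower one, chr14:103048597-103049394 at 2.02 kb, covers intron and the edge of a coding exon. It read 22.9 and 23.8 CPM in spleen control libraries against 13.1, 10.0, 8.30 and 7.46 CPM without Vps34, and 31.7 and 37.2 CPM in the lung controls against 11.5 and 13.3 CPM. The groups did not overlap, with log2 fold changes of -1.27 ± 0.17 for spleen and -1.50 ± 0.21 for lung. The level one, chr14:103051341-103051766 at 4.58 kb, overlaps a later coding exon and ranged from 24.1 to 30.0 CPM over the 10 libraries, with fold changes of 0.12 ± 0.12 and 0.05 ± 0.15. The other 4 peaks lay outside the gene.

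Because Acod1 is best known from myeloid cells, marker genes of that lineage were examined in the same libraries. Of 7 myeloid markers, Csf1r, Lyz2, Adgre1 and Cybb had no peak at their starts. Spi1, Itgam and Cd14 together summed to 22.5 to 24.9 CPM in spleen controls and 16.1 to 22.2 CPM in deficient spleen libraries, and to 25.7 to 27.4 CPM in lung controls and 16.4 to 18.4 CPM in deficient lung libraries, lower without Vps34 in both tissues. The 5 markers of CD8 and NK cells, of which Ncr1 and Klrb1c had no peak at their starts, summed to 23.6 to 27.6 CPM in lung controls and 33 to 39.6 CPM in deficient lung libraries. In spleen they summed to 28.1 to 32.5 CPM in controls and 26.6 to 37.9 CPM without Vps34. The part of these shifts in the results was not tested. The 6 Treg and T cell markers, Foxp3 among them, all had peaks, which summed to between 219.5 and 290.3 CPM in each library.

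Igsf9b spans chr9:27299204-27357546 on the plus strand (58.3 kb) and was the gene of the 5 whose peak at the annotated gene start was itself lower without Vps34. The start peak, chr9:27298957-27299434 over an untranslated exon, read 36.9 and 34.7 CPM in spleen control libraries against 12.0, 13.2, 11.6 and 15.9 CPM without Vps34. In lung it read 46.5 and 46.7 CPM against 14.3 and 19.1 CPM. The group means were 35.8 ± 1.5 (SD, n = 2) and 13.2 ± 2.0 (SD, n = 4) CPM in spleen and 46.6 ± 0.18 (SD, n = 2) and 16.7 ± 3.4 (SD, n = 2) CPM in lung, and the log2 fold changes were -1.45 ± 0.14 and -1.51 ± 0.17. Every one of the 5 Igsf9b peaks had a negative fold change in both tissues, with medians of -1.37 in spleen and -1.73 in lung. The peak at 1.48 kb, chr9:27300334-27301035, had fold changes of -1.14 ± 0.25 and -1.73 ± 0.31. The closing peak, chr9:27313228-27313807 at 14.3 kb, read 4.01 and 2.62 CPM in the spleen controls and 0.903 to 1.53 CPM without Vps34, and 3.83 and 5.93 CPM in the lung controls against 1.46 and 1.27 CPM. Its fold changes were -1.37 ± 0.33 and -1.86 ± 0.42. The peak at 26.9 kb was past the thresholds in lung alone and the one at 8.28 kb in neither tissue, both from levels of at most 3.40 CPM.

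**Figure D3:**
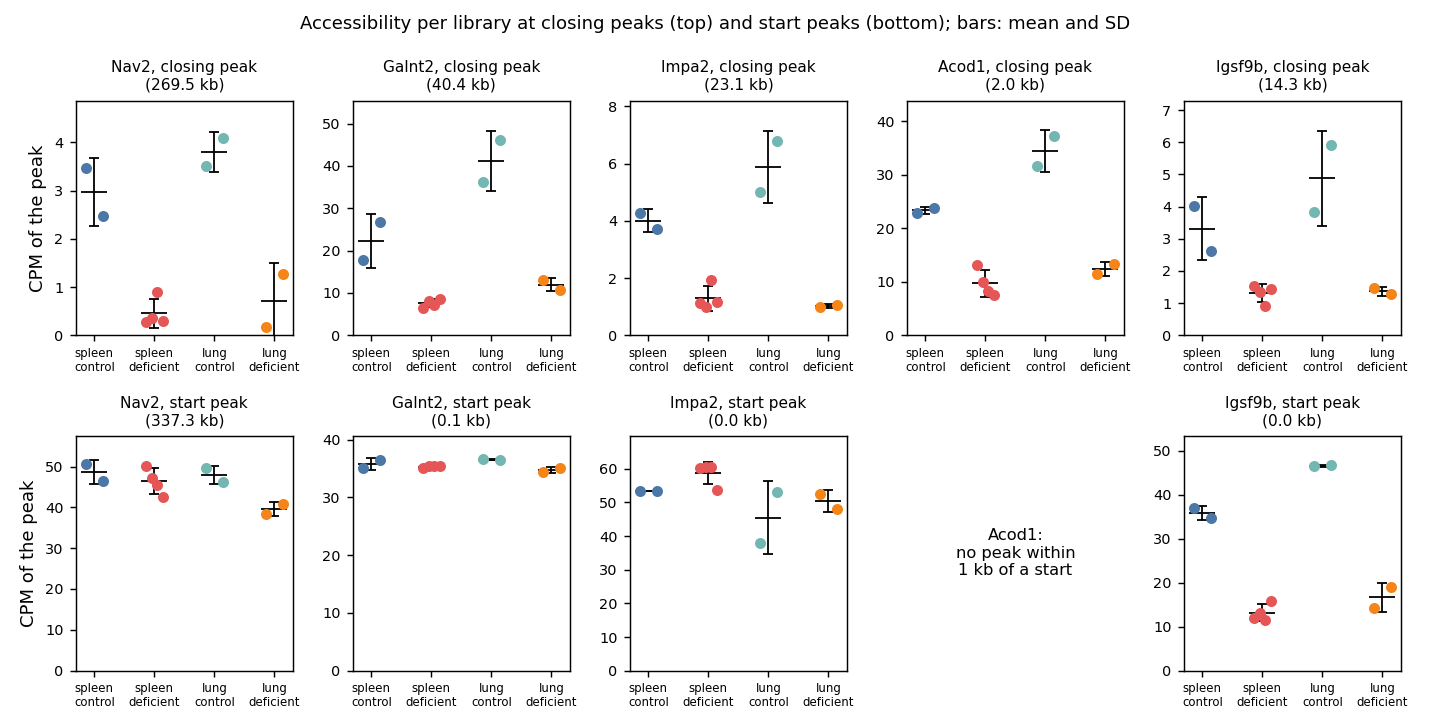
CPM of the closing peak (top row) and the start peak (bottom row) of each gene in each library (y axis, from 0) for the 4 groups (x axis), with points for libraries and bars for the mean and SD. Deficient libraries lie below the controls of the same tissue at all 5 closing peaks and at the Igsf9b start, whereas the starts of Nav2, Galnt2 and Impa2 remain between 34.4 and 60.6 CPM in every group.

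All 16 peaks lower in both tissues lay in the genes themselves. So did most members, with 54 of 57 at Nav2, 24 of 26 at Galnt2, 8 of 10 at Impa2, 2 of 6 at Acod1 and 5 of 5 at Igsf9b. The peaks just inside and just outside the 10 kb window lay 9757 and 14225 bp from Nav2 and 4070 and 22517 bp from Galnt2. At Impa2 they lay 8135 and 10250 bp away and at Acod1 9628 and 13056 bp, and no Igsf9b peak lay between the gene and 48390 bp. The outside peak of Acod1, upstream of the gene, had a mean of 29.1 CPM and fold changes of -0.77 for spleen and -0.99 for lung. That peak was past the genotype thresholds downward in both tissues and, lying outside the window, is not among the 16. The outside peaks of Nav2, Galnt2, Impa2 and Igsf9b were past them in neither tissue. Their fold changes were 0.21, -0.30, 0.06 and 0.85 in spleen and 1.20, 0.25, 0.18 and 0.83 in lung.

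The genes were not selected on tissue, so lung was compared with spleen over both genotypes with the quasi-likelihood test of edgeR, adjusted by Benjamini-Hochberg over all 97109 peaks. Of the 104 peaks, 23 were more accessible in lung (18.4% of all peaks tested) and 2 less accessible (6.51% of all), so that over the 5 genes the share higher in lung, 23 of 104, lay near that of all peaks. The genes differed in these counts. At Galnt2, 10 of 26 peaks were higher in lung and none lower, with a median log2 fold change of 0.40. At Nav2, 10 of 57 were higher and 2 lower, with a median of -0.04. At Acod1 2 of 6 and at Impa2 1 of 10 were higher, and at Igsf9b none of 5 passed. The median over all tested peaks was -0.01. All 4 lung libraries lay above all 6 spleen libraries at 13 of the 104 peaks (7.93% of all peaks).

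The tissue peak of Galnt2, the one with the smallest p, was chr8:124317778-124318366 in an intron at 86.7 kb. It read 24.1 and 22 CPM in spleen control libraries, 18.6, 22.1, 22.1 and 19.95 CPM in the deficient spleen libraries, 50.0 and 49.0 CPM in the lung controls and 40.9 and 33.7 CPM in the deficient lung libraries. All lung libraries lay above all spleen libraries (log2 fold change 1.02 ± 0.09, adjusted p = 1.76e-08, edgeR). The Galnt2 closing peak was also higher in lung (0.83 ± 0.14, adjusted p = 5.24e-05, edgeR), as were the closing regions at 34.6 kb (0.94 ± 0.10) and 11 kb (0.56 ± 0.11). Taken over both genotypes, lung and spleen libraries overlapped at these 3 peaks. The Galnt2 start peak did not pass (0.06 ± 0.08, adjusted p = 0.602, edgeR).

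At Nav2 the peaks that rose in lung were other peaks than those lower without Vps34. None of the 6 Nav2 peaks past the genotype thresholds in either tissue was called for tissue over both genotypes. Within Vps34-deficient cells, those at 294 and 341 kb were called lower in lung (-1.12 ± 0.38 and -0.93 ± 0.27). The genotype and tissue contrasts use the same libraries, so this is a description. The tissue peak of Nav2, chr7:49577290-49577500 in an intron at 669 kb, read 18.3 and 27.4 CPM in spleen control libraries, 36.3, 34.1, 26.6 and 37.8 CPM in the deficient spleen libraries, 63.6 and 39.1 CPM in the lung controls and 73.7 and 83.8 CPM in the deficient lung libraries. It was higher in lung (1.26 ± 0.12, adjusted p = 3.13e-08, edgeR), and its log2 fold change of genotype was 0.57 in spleen and 0.61 in lung. The 9 other Nav2 peaks higher in lung had fold changes from 1.12 to 2.80. The largest was at 389 kb, from 0 to 0.489 CPM in spleen and 1.49 to 1.69 CPM in lung. The Nav2 peaks lower in lung lay upstream of the gene, at -8.03 kb (-0.53 ± 0.19) and in an intron at 693 kb (-0.55 ± 0.09), the latter at 36.7 to 47.5 CPM in spleen and 22.9 to 32.6 CPM in lung. The Nav2 closing peak did not pass (0.46 ± 0.40, adjusted p = 0.428, edgeR), with 0.06 without lung Vps34-deficient replicate 2 and 0.71 without lung Vps34-deficient replicate 1, nor did the start peak at 337 kb (-0.08 ± 0.08, adjusted p = 0.513, edgeR).

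At the other 3 genes few peaks differed by tissue. The Acod1 closing peak was higher in lung by a log2 fold change of 0.52 ± 0.14 (adjusted p = 0.00551, edgeR), just past the threshold of 0.5. It was below the threshold in 13 of 19 alternatives, at 0.41 without lung control replicate 2, so this call is not stable. The tissue peak of Acod1, chr14:103059061-103059361 downstream of the gene, read 0.489 to 1.52 CPM in the 6 spleen libraries and 1.91 to 4.09 CPM in the 4 lung libraries (1.59 ± 0.31, adjusted p = 0.000346, edgeR). The Impa2 peak with the smallest p was the coding-exon peak at 19.3 kb, with a fold change of 0.47 ± 0.08 (adjusted p = 0.000127, edgeR) that did not reach the fold threshold. The 1 Impa2 peak called, in an intron at 27.1 kb, read 0.0891 to 0.428 CPM in spleen, 2.13 and 3.95 CPM in the lung controls and 0.487 and 1.06 CPM in the deficient lung libraries (2.60 ± 0.58, adjusted p = 0.00133, edgeR). The Igsf9b start peak had a fold change of 0.42 ± 0.11 (adjusted p = 0.00422, edgeR), below the fold threshold as well.

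**Figure D4:**
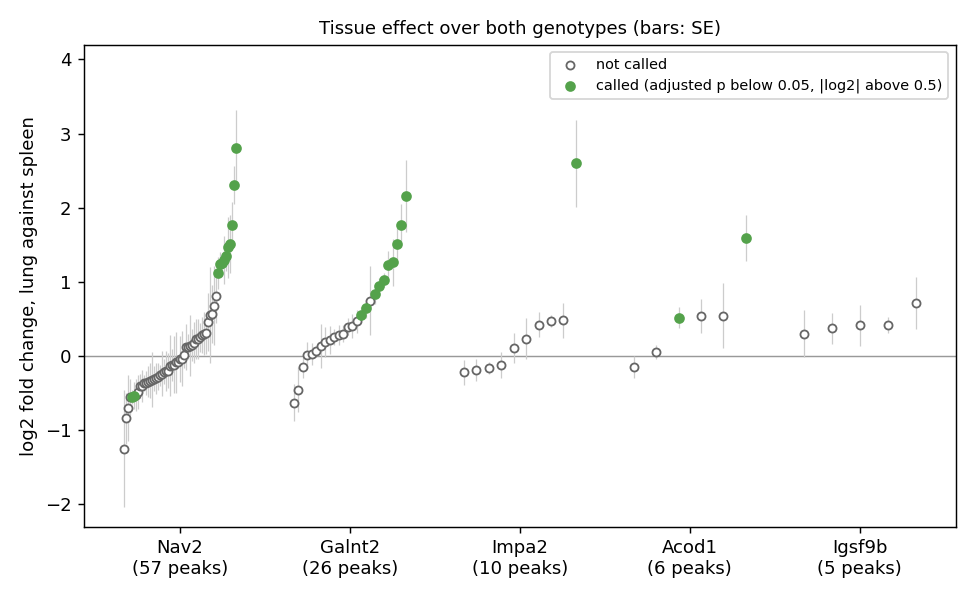
Log2 fold change of lung against spleen over both genotypes (y axis) for each member peak, sorted within each gene (x axis), with bars for the standard error and filled points for peaks called (adjusted p under 0.05, log2 fold change over 0.5 in size). Called points lie above 0 at Galnt2 (10 of 26), Impa2 (1 of 10) and Acod1 (2 of 6), at Nav2 on both sides (10 above and 2 below), and Igsf9b has none.

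Within each genotype the same test gave similar counts of peaks higher in lung. In control cells 23 of the 104 peaks were higher in lung (11.8% of all peaks) and none lower (3.53% of all), with 12 of the 23 at Galnt2, whereas without Vps34 17 were higher (12.5% of all) and 4 lower (4.72% of all), with 7 of the 17 at Galnt2. These comparisons share libraries with the genotype effects. In control cells, with 2 libraries in each group, the count leaned on single libraries: without spleen control replicate 1 it was 7, and without lung control replicate 2 it was 13. In control cells, 28 of the 104 peaks had a positive and 3 a negative fold change at an unadjusted p below 0.05 (edgeR). The share of all peaks at that cut is not given here, so these counts only describe the members. With DESeq2, 1 peak was called lower. At the Galnt2 closing peak the tissue fold change was 0.97 ± 0.20 in control cells and 0.70 ± 0.19 without Vps34.

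Whether the genotype effect differed between lung and spleen was tested as an interaction. No member peak was called by the quasi-likelihood test of edgeR after Benjamini-Hochberg adjustment, nor was any of all peaks (0% of 97109), and DESeq2 called no member either. At an unadjusted p below 0.05 there were 9 member peaks, 5 at Galnt2 and 4 at Nav2, and 7060 among all peaks. The smallest p, 0.00199, was at the Galnt2 peak 47.3 kb from the start (interaction -1.44 ± 0.42, adjusted p = 0.42, edgeR), where the genotype fold change was -0.64 in spleen and -2.08 in lung. At the Nav2 peak 294 kb from the start the interaction was -1.48 ± 0.48 (adjusted p = 0.455, edgeR). The effect at these peaks was therefore not shown to differ between the tissues, although 7 members were past the genotype thresholds in lung alone (2.93% of all peaks) and 1 in spleen alone (0.211% of all).

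Across the 10 libraries the closing peaks of the 5 genes followed one another, with Pearson's r of log2 CPM from 0.837 (Nav2 and Igsf9b) to 0.936 (Nav2 and Impa2). All were selected on the same difference and come from the same libraries, so this is a description. Outside the windows of the 5 genes, the peaks most like each closing peak over the 10 libraries were looked up and named by the nearest start of a protein-coding gene. For Galnt2 these were peaks near Agpat4 (r = 0.988), Idh3a (r = 0.987) and Rps15a (r = 0.987). For Impa2 they lay near Rassf8 (r = 0.986), Prdm10 (r = 0.983) and Wdr41 (r = 0.980). For Acod1 they lay near Atxn1 (r = 0.989), at Il2 (r = 0.987), the gene of the cytokine interleukin-2, and near Gm5426 (r = 0.986). For Igsf9b they lay near Runx1 (r = 0.980), which encodes a RUNX-family transcription factor, Fam81a (r = 0.978) and Rftn1 (r = 0.975), and for Nav2 near AI464131 (r = 0.975), Gm13691 (r = 0.969) and Ubac2 (r = 0.969). The highest values among 97109 peaks are high in part by the number searched.

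Genes related to the 5 in function or family were read in the same way, against the shares over all tested peaks of 0.812% lower in both tissues, 3.74% lower in lung and 0.441% higher in spleen without Vps34, and of 18.4% higher and 6.51% lower in lung than in spleen. Of 23 tested peaks at Nav1 and Nav3, the other neuron navigators, 1 was past the genotype thresholds in both tissues, a Nav1 peak at chr1:135594096-135594526 with fold changes of -1.86 for spleen and -2.16 for lung. For tissue, 9 of the 23 were higher in lung and none lower, with a median of 0.59. Among 145 peaks of 14 genes of O-linked glycosylation, none was lower in both tissues, 10 were lower in lung and 1 was higher in spleen, while for tissue 17 were higher and 10 lower in lung. Galnt10, another enzyme that starts O-linked chains, held the one with the smallest p (1.99 ± 0.25, adjusted p = 1.04e-06, edgeR).

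Among 173 peaks of 12 genes of inositol phosphate metabolism, 11 were lower in lung and 2 in both tissues, at Itpkb, a kinase of inositol trisphosphate (-1.30 in both tissues), and at Ipmk, the inositol polyphosphate multikinase (-0.92 and -0.99). For tissue 13 were higher and 10 lower in lung, and the 3 with the smallest p lay at Inpp4b, with fold changes from 1.19 to 1.44. Among 64 peaks of the citrate cycle and itaconate genes, 3 were lower in lung and 2 in both tissues, at Idh3a, a subunit of isocitrate dehydrogenase (-1.70 and -1.88), and at Sdhc, a subunit of succinate dehydrogenase (-1.55 and -1.14), and both were higher in lung by 1.02 ± 0.20 and 1.03 ± 0.21. For tissue 7 of the 64 were higher and 4 lower in lung. Among 70 peaks of 6 genes related to Igsf9b or its synaptic partners, 3 were lower in both tissues and none in lung alone, 2 at Igsf8 (-0.75 and -1.36 at one, -1.20 and -1.84 at the other) and 1 at Igsf9, a paralogue of Igsf9b (-1.28 and -1.60). The Igsf9 peak was also higher in lung (1.22 ± 0.22, adjusted p = 0.000155, edgeR), and 19 of the 70 were higher and 6 lower in lung.

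Total counts ran from 9405823 to 22439699 in the 10 libraries, with both lung Vps34-deficient libraries and lung control replicate 1 among the 4 smallest. In simulated data with the same depths, the test of tissue over both genotypes called 53.5% of 200 peaks changed 2-fold and 92.5% of 200 changed 4-fold, so a peak that did not pass may still differ. Unchanged peaks were called as well, 12 beside 107 recovered at 2-fold and 9 beside 185 at 4-fold, so a call may also be false. Lung control replicate 2 was above lung control replicate 1 at the Galnt2 closing regions and below it at the Nav2 tissue peak. Past the genotype thresholds in lung were 12 members rather than 23 without it, and 14 without either one of the lung Vps34-deficient libraries. In spleen 10 rather than 17 were without spleen control replicate 1 and 11 without spleen control replicate 2, with 10 and 11 lower in both tissues.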

How the data were processed

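ATAC-seq counts of Tregs from 2 tissues and 2 genotypes were analysed, in 10 libraries. Per the study's methods, the authors aligned paired reads with BWA, removed duplicates, shifted read ends for the Tn5 insertion site and kept nucleosome-free fragments. Peaks called in each sample with MACS2 were kept if found in 50% of the replicates and merged. The submitters' processing notes name cutadapt 1.9, Picard 1.65 and MACS2 2.1.0.20150603 with the builds mm10 and GRCm38, whereas the methods name mm9. Peaks covered 51.1% of the starts of 22028 protein-coding genes on GRCm38, and 2.79% and 2.93% when moved by 50 kb, so GRCm38 was used, with GENCODE M21. The deposited values are whole-number counts per peak and library, made by the authors and not normalised. Between 91.46% and 96.46% of them were even, for a reason not given in the sources used here, so halved counts were among the alternatives. Groups follow the labels, which give 2 control and 4 Vps34-deficient spleen libraries, where the methods text has these numbers the other way round. Total counts ran from 9405823 to 22439699, and the chi-square between replicates over its degrees of freedom was 2.77 to 5.37, or 1.38 to 2.69 with halved counts, where counting noise alone gives about 1.

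Here counts were filtered with filterByExpr, scaled with TMM factors and fitted by the quasi-likelihood method of edgeR 4.0.16 (R 4.3.3) to all 10 libraries, with Benjamini-Hochberg adjustment over all 97109 peaks that passed, which included all 104 members. Tissue over both genotypes was fitted with genotype as a covariate, and the other effects with a term for each of the 4 groups. The study used DESeq2, tried here as an alternative (1.42.0). Standard errors were derived from each fold change and its F value. CPM is the count scaled to a library total of 1e+06. Sequences were read with pysam 0.24.0 from the RefSeq copy of GRCm38.p6. The procedure was tested on simulated data. The peaks named are, for each gene, the closing peak, the most accessible start peak and the peak with the smallest p for tissue. Peaks past the thresholds, those beside them and the sequences shown were named with their values in view. Peaks like a closing peak were ranked by Pearson's r of log2(CPM + 0.5), with 1 for each nearest gene. The members, gene lists and markers were chosen with earlier results of these data known. Other alternatives were other scalings, count filters, halved counts, a replicate block, a chromosome Y covariate, leaving out each library, a fold threshold of 1 and other windows. Every count column was used, so no column was left out.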

Additional observations from a re-analysis of the deposited data

Results flagged for a closer look

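Of 13 named peaks examined in the 4 spleen Vps34-deficient libraries, the only group large enough, 3 had a library far from the other 3 by Dixon's criterion, where chance flags about 1 in 20 groups. At the Nav2 closing peak, replicate 3 read 0.903 CPM, above the others but below both spleen controls. At the Galnt2 start peak, replicate 1 read 35.0 CPM, in a group whose whole range ran to 35.5 CPM. At the Impa2 start peak, replicate 4 read 53.8 CPM, near the spleen controls at 53.4 CPM.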

How the results depend on the processing

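The count of member peaks higher in lung over both genotypes, 23, stayed between 18 and 29 under all alternatives, and no alternative called a member in the interaction. The 2 members lower in lung were 5 with library size alone and without a count filter, 4 with halved counts and within 50 kb, 1 with the replicate block and for peaks in the gene alone, 0 above a fold change of 1 and 2 to 6 without single libraries, with 6 without spleen Vps34-deficient replicate 1 or lung Vps34-deficient replicate 2. In control cells, the 23 higher in lung ranged from 7 to 23 without single libraries. None was lower there, but 1 was with library size alone, median-of-ratios factors, the DESeq2 Wald test or 10 counts in every library of a group, 2 without a filter, with halved counts or within 50 kb, and 0 to 2 without single libraries. In Vps34-deficient cells, the 17 higher in lung were 11 with the replicate block and above a fold change of 1, and 13 to 23 without single libraries. The 4 lower there were 2 with the replicate block and above a fold change of 1, and 1 to 8 without single libraries. Lower without Vps34 were 10 to 20 peaks in spleen, 12 to 23 in lung and 10 to 16 in both without single libraries. Higher were 0 to 2 in either tissue without single libraries, 2 with spleen libraries alone, and in lung 1 with library size alone, median-of-ratios factors, 10 counts in every library of a group, halved counts or the chromosome Y covariate. The cause of these shifts was not tested. The Galnt2 start peak's tissue fold change lay around 0, at -0.0045 without a filter and from -0.0055 to 0.0877 without single libraries, and without single libraries that of the Impa2 closing peak ran from -0.0399 without lung control replicate 2 to 0.363 without lung Vps34-deficient replicate 1 and was 0.404 with the replicate block. The Acod1 closing peak's tissue fold change was below 0.5 in 13 of 19 alternatives, at 0.407 to 0.499, among them library size alone, median-of-ratios factors, the DESeq2 Wald test, no filter, halved counts and the replicate block.

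Libraries that share a replicate number did not deviate together (correlations from -0.098 to 0.063), and the labels give no pairing. The summed level of chromosome Y peaks was, however, alike, high or low, in all 4 pairs of a spleen and a lung library of one genotype and number, and whether such pairs came from the same mouse was not tested. With these pairs as a block, an alternative chosen after seeing the data, 22 members were higher in lung and 2 lower over both genotypes, 21 and 0 in control cells, and 13 and 2 in Vps34-deficient cells. With the replicate number alone as the replicate block, 22 members were higher in lung over both genotypes. With 2 libraries in 3 of the groups and 9405823 counts in the smallest library, peaks under 1 CPM give imprecise fold changes.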
